A study of Homo sapiens with 15 samples.

Results

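The nuclear-encoded subunits of the respiratory chain and ATP synthase were followed in 3 human acute myeloid leukemia (AML) lines after knockdown of the ubiquitin ligase RNF5. Members were taken by gene symbol alone: symbols beginning NDUFA, NDUFB, NDUFC, NDUFS or NDUFV with a number, SDHA to SDHD, UQCR, COX4 to COX8 or ATP5, without those that mark pseudogenes. The pattern matched 207 of 57820 gene identifiers, of which 113 had pseudogene symbols and 13 were at 0 in every library. The remaining 81 members were 36 subunits of complex I, 4 of complex II, 8 of complex III, 13 of complex IV with NDUFA4 and NDUFA4L2 counted there, 15 of ATP synthase (complex V), 3 associated proteins (ATP5S, ATP5SL and COX7A2L) and 2 antisense RNAs. The identifiers at 0 in all libraries included the tissue-restricted isoforms COX4I2, COX6A2, COX6B2, COX7A1 and COX7B2, and also identifiers of the ubiquitous subunits SDHD, NDUFB8, UQCR11 and NDUFA7, each of which has a further identifier among the members.

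RNA was sequenced from MOLM-13, U937 and HL-60 cells, each a single established line, transduced with the empty lentiviral vector pLKO or with a short hairpin RNA that targets RNF5 (shRNF5). There were 3 control and 3 knockdown libraries of HL-60, 2 of each for U937, and 3 control and 2 knockdown libraries of MOLM-13. The control vector carries no hairpin, and the hairpin that was sequenced is not named. The sample labels place RNA preparation at day 7 of knockdown and the series design at day 5. Nothing states that replicates came from separate cultures, so the p-values measure the spread between these libraries, which may be technical.

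Complexes I and II pass electrons from NADH and succinate to coenzyme Q, complex III passes them to cytochrome c and complex IV to oxygen, and the proton gradient built on the way drives ATP synthase. Each complex except complex II is put together from subunits of both genomes, with part of the hydrophobic membrane core encoded by mitochondrial DNA and the rest by the nucleus. AML cells are known for their reliance on oxidative phosphorylation.

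The RNF5 knockdown was present in all lines: RNF5 values lay between 506 and 1223 in the pLKO libraries and between 37 and 133 in the shRNF5 libraries. The read depth inferred from the steps between low values ran from 9.72 to 63.8 (in units of 10 to the power 6 counted reads), both extremes in MOLM-13. All 10 myeloid markers were above 0 in MOLM-13, whereas CD14 was at 0 in U937 and CD14 and CSF1R were at 0 in HL-60. All 4 T-cell markers were at 0 in every library. Of 6 erythroid markers, the globin genes were at 0 throughout, and the sums of the list ran from 26 to 333, with at least 190 in the pLKO and at most 178 in the shRNF5 libraries of U937. Of 4 B-cell markers, 3 were above 0 in U937 and 1 in each of the other lines, with sums of 22 to 34 with pLKO against 38 to 44 with shRNF5 in HL-60, 277 to 324 against 289 to 342 in U937 and 925 to 1191 against 1055 to 1275 in MOLM-13. Of 4 markers of the epithelial kidney cells used to pack virus, EPCAM and CDH1 were at 0 throughout. Their sums were 6 to 8 against 18 to 25 in HL-60, 0 in U937 and 451 to 750 against 769 to 853 in MOLM-13. The summed myeloid markers were 38506 and 47607 with pLKO against 21430 and 24476 with shRNF5 in U937, 122685 to 153232 against 173279 to 262071 in HL-60, and 74441 to 117991 against 81090 to 107507 in MOLM-13. The myeloid sums did not overlap between groups in U937 or HL-60, nor did the erythroid sums in U937, the B-cell sums in HL-60 or the kidney-cell sums in HL-60 and MOLM-13, and the part of these markers in the results was not tested.

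Promoters of 5 members are printed as examples. ATP5H, ATP5J and COX7C are 3 of the 7 members called in HL-60 in every fit that left out 1 library, and UQCRC1 and SDHD hold letters of factors known to drive respiratory genes. The window of UQCRC2, another of the 7, held none of the cores marked here and is not printed. Each run is the 250 bases before the start site on GRCh38.p14 from RefSeq, 5′ to 3′ on the gene's strand. Capitals mark the core of NRF1 sites (GCGC, then A, any base and GCGC again), CCGGAAG, the core bound by GABP and other ETS factors, and AANATGGCG, the YY1 core, each read on both strands. ATP5H lies at chr17:75046970-75047219 (reverse strand), ATP5J at chr21:25735055-25735304 (reverse strand), COX7C at chr5:86617691-86617940 (forward strand), UQCRC1 at chr3:48609647-48609896 (reverse strand) and SDHD at chr11:112086623-112086872 (forward strand).
ATP5H promoter: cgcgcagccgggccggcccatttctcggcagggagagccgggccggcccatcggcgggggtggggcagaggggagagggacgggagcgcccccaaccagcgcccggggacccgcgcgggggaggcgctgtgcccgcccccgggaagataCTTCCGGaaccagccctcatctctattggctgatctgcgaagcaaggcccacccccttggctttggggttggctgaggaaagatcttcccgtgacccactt
ATP5J promoter: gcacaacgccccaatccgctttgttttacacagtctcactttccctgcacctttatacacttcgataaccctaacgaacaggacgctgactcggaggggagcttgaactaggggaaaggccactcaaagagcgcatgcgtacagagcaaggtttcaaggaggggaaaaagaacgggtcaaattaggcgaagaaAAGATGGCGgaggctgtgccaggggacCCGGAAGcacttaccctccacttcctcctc
COX7C promoter: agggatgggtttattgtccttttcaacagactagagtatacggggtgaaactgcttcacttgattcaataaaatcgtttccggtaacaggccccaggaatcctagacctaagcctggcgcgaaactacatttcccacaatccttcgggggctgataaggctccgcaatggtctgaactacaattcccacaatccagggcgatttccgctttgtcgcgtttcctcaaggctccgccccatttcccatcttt
UQCRC1 promoter: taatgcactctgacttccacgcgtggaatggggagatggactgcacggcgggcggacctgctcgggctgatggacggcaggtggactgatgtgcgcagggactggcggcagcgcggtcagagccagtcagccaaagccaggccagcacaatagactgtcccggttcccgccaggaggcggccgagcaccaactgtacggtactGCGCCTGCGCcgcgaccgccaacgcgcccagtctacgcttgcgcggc
SDHD promoter: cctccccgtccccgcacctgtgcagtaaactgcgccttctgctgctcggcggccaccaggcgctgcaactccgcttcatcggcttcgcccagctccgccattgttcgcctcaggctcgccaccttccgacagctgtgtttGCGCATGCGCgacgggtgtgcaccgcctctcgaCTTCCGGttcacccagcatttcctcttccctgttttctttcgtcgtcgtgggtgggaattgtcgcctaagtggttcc

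Promoter windows of 300 bases, 250 before and 50 after the start, were found for 67 of 81 members, 81 windows in all since some genes have several. The YY1 letters were in 23.5% of the member windows, against 3.19% of 34943 windows of all genes and 5.86% of the windows of genes above 0 in any library. The NRF1 letters were in 19.8%, against 5.74% and 9.85%, and the ETS letters in 24.7%, against 10.2% and 16.8%. GGGCGG, the SP1 core, was in 61.7% of member windows, 44.9% of all and 64.8% of those of genes above 0, and TATAAA was in 7.41%, 11.6% and 6.45%. Printed promoters of members that changed in opposite directions both held ETS letters: ATP5H, which rose in HL-60, and ATP5J, which fell there. COX7C, which also rose in HL-60, held none of the 3 capitalized cores in its window. TCAAGGTCA, the site of estrogen-related receptors, was in 1 of 81 member windows (1.23%), in 0.355% of all and in 0.182% of those of genes above 0. A match describes the letters and is not a measured site.

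Levels in control cells were compared between genes per kilobase of transcript and per 10 to the power 6 of each library's summed values. On this scale ATP5B, the catalytic beta subunit of ATP synthase, was the highest member in HL-60, at 761 ± 25.2 (SD, n = 3), and in MOLM-13, at 769 ± 39.4 (SD, n = 3). In U937 it reached 343 ± 15.9 (SD, n = 2), below NDUFB9 at 521 ± 88.9 (SD, n = 2), COX6C at 508 ± 48.3 (SD, n = 2) and UQCRH at 408 ± 107 (SD, n = 2). NDUFB9, COX6C and UQCRH lay within their spread of each other, and ATP5B lay within the spread of UQCRH. ATP5G2, at 351 ± 18.6 (SD, n = 2) in U937, was also above ATP5B, within their spread. ATP5A1, the alpha subunit of the same catalytic head, stood at 262 ± 14.3 (SD, n = 3) in HL-60, 161 ± 8.34 (SD, n = 2) in U937 and 155 ± 10.8 (SD, n = 3) in MOLM-13. The lines were normalized separately, so these levels are descriptions and were not tested between lines. Pseudogene identifiers named after these genes and the c subunit genes below include 9 for ATP5A1, 7 for ATP5G1, 5 for COX6C, 4 for UQCRH, 3 for ATP5G2 and 1 for ATP5B. Reads shared with such copies may be lost, and the effect on the order of genes was not tested. A level per kilobase assumes reads along the whole transcript, which the 3′ kit named in the labels would not give. Without division by length, ATP5A1 was above ATP5B in HL-60, at 1510.2 against 1339, and in U937, at 929.6 against 604, so that the order of these subunits depends on the scale.

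Isoforms of the same subunit differed by line. COX8C, a testis-type isoform of the smallest complex IV subunit, was above 0 only in U937, with 263 and 365 normalized read counts in pLKO and 238 and 214 in shRNF5 libraries, while COX8A was present in every line. NDUFA4L2, a hypoxia-responsive paralog of NDUFA4, was above 0 in MOLM-13 and U937 and at 0 in HL-60. In MOLM-13 it read 42, 76 and 85 with pLKO and 23 and 24 with shRNF5, and its log2 fold change of -1.43 ± 0.40 (SE) had a limma adjusted p of 0.157. ATP5G1, ATP5G2 and ATP5G3 encode the same mature c subunit of the ATP synthase rotor. On the per-kilobase scale, ATP5G2 stood at 401 ± 107 (SD, n = 3) in HL-60, 351 ± 18.6 (SD, n = 2) in U937 and 505 ± 128 (SD, n = 3) in MOLM-13 control cells. ATP5G3 was above ATP5G1 in U937, at 149 ± 24.2 (SD, n = 2) against 53.1 ± 31.2 (SD, n = 2) per kilobase. The order of the 3 genes turned with the scale, since ATP5G3 was above ATP5G2 in U937 and HL-60 without division by length, at 384 against 222 and 379 against 253, and below it per kilobase.

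**Figure D1:**
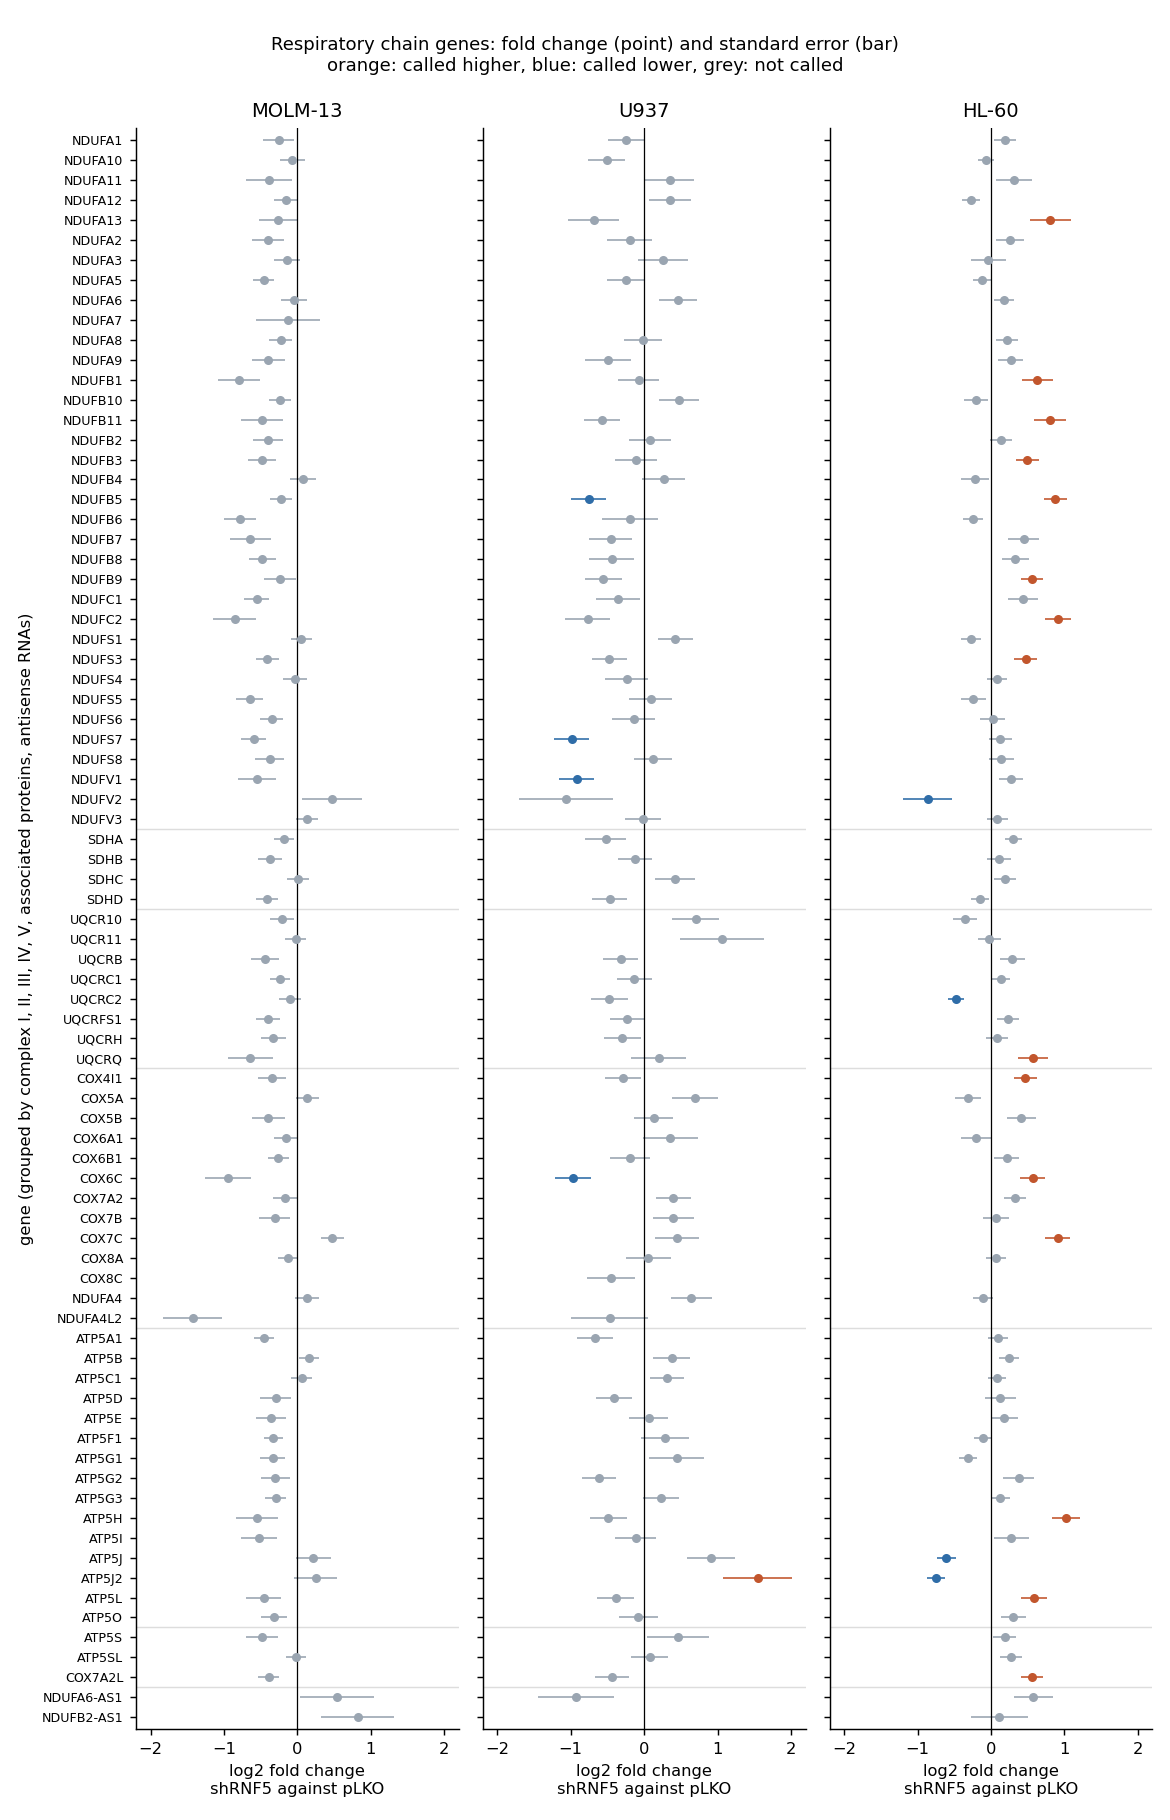
Log2 fold change of 80 of the 81 members (shRNF5 against pLKO, x axis) in MOLM-13, U937 and HL-60, with the standard error as a bar; orange and blue mark members called higher or lower and grey those not called. The HL-60 panel holds 15 orange and 4 blue points, the U937 panel 1 and 4, and the MOLM-13 panel none, with most of its points left of 0.

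In HL-60, more respiratory subunits were called higher than lower after knockdown, though not when 1 of the libraries was left out. Of 78 members tested, 15 rose and 4 fell (limma with Benjamini-Hochberg adjustment, called at an adjusted p under 0.1 where the log2 fold change exceeded 0.4 in size), where 25.9% of all 12570 genes were called, 13.6% higher and 12.3% lower. The 24.4% of members called was thus close to the share of all genes, and the members lay more to the higher side. Their median log2 fold change was 0.18, against 0.00 over all genes, and 21 of 78 were below 0, where 49.7% of all genes were. All shRNF5 libraries were above all pLKO libraries for 20 members and below them for 5, where 19.9% and 18.6% of all genes were so placed. The risers were 8 complex I subunits (NDUFA13, NDUFB1, NDUFB3, NDUFB5, NDUFB9, NDUFB11, NDUFC2 and NDUFS3), UQCRQ of complex III, COX4I1, COX6C and COX7C of complex IV, ATP5H and ATP5L of ATP synthase, and COX7A2L, which takes part in supercomplex assembly. The 4 that fell were UQCRC2, ATP5J, ATP5J2 and NDUFV2. In bulk RNA, fewer cells with a transcript and less of it per cell cannot be told apart.

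ATP5H (ENSG00000167863.7, chr17:73034958-73043080 on GRCh37, reverse strand) encodes subunit d of the peripheral stalk. Its HL-60 values were 1827, 2254 and 1918 with pLKO and 3132, 3807 and 5543 with shRNF5. The groups did not overlap, and the log2 fold change was 1.02 ± 0.19 (SE), with a limma adjusted p of 0.00616. COX7C (chr5:85913745-85916779, forward strand), a small membrane subunit of complex IV, went from 2750, 3332 and 2211 to 4320, 5205 and 6012. All knockdown libraries were above all controls, by 0.91 ± 0.17 (SE) on the log2 scale (limma adjusted p = 0.00629). NDUFC2 (chr11:77779343-77790908, reverse strand), an accessory subunit of the complex I membrane arm, read 671, 735 and 846 with pLKO and 1084, 1421 and 1808 with shRNF5. It rose by 0.91 ± 0.18 (SE), with a limma adjusted p of 0.00775, and it overlaps the read-through gene NDUFC2-KCTD14, so that reads shared by both may be lost or split. COX4I1, the largest nuclear subunit of complex IV, read 2495, 2847 and 2636 against 3039, 3474 and 4666. Its log2 fold change was 0.47 ± 0.16 (SE, limma adjusted p = 0.0595), and the groups did not overlap.

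NDUFB5 (chr3:179322478-179345435, forward strand), another membrane-arm accessory subunit, read 1890, 1862 and 2307 in HL-60 pLKO and 3475, 3164 and 4584 in HL-60 shRNF5 libraries. This is a rise of 0.88 ± 0.16 (SE), with a limma adjusted p of 0.00534. COX6C, a small subunit of complex IV, read 1266, 1523 and 1274 with pLKO and 1594, 1980 and 2536 with shRNF5. Its rise was 0.57 ± 0.17 (SE, limma adjusted p = 0.0372), without overlap of the groups.

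Among the subunits that fell in HL-60, ATP5J2 (chr7:99046098-99063809, reverse strand), subunit f of the ATP synthase membrane part, read 960, 1003 and 868 with pLKO and 596, 529 and 556 with shRNF5. The libraries of each group lay close together and apart from the other, with a log2 fold change of -0.75 ± 0.12 (SE) and a limma adjusted p of 0.00409. ATP5J (chr21:27088815-27107984, reverse strand), coupling factor 6 of the peripheral stalk, read 2580, 2593 and 2251 against 1544, 1489 and 1851. It fell by 0.61 on the log2 scale (SE 0.13, limma adjusted p = 0.00988), and ATP5H of the same stalk rose. UQCRC2, a core subunit of complex III chosen for its values after they were seen, read 5654, 5833 and 5799 with pLKO and 4423, 3975 and 4082 with shRNF5. The groups did not overlap and the change was -0.47 ± 0.11 (SE, limma adjusted p = 0.016). NDUFV2, an iron-sulfur subunit, read only 94, 39 and 64 against 39, 36 and 27. Its groups touch at 39, and the pseudogene NDUFV2P1 read 31, 38 and 42 with pLKO and 33, 31 and 31 with shRNF5, so its change of -0.86 ± 0.33 (SE, limma adjusted p = 0.0939) is uncertain. ATP5J2 also shares sequence with a read-through gene, ATP5J2-PTCD1, which was at 0.

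**Figure D2:**
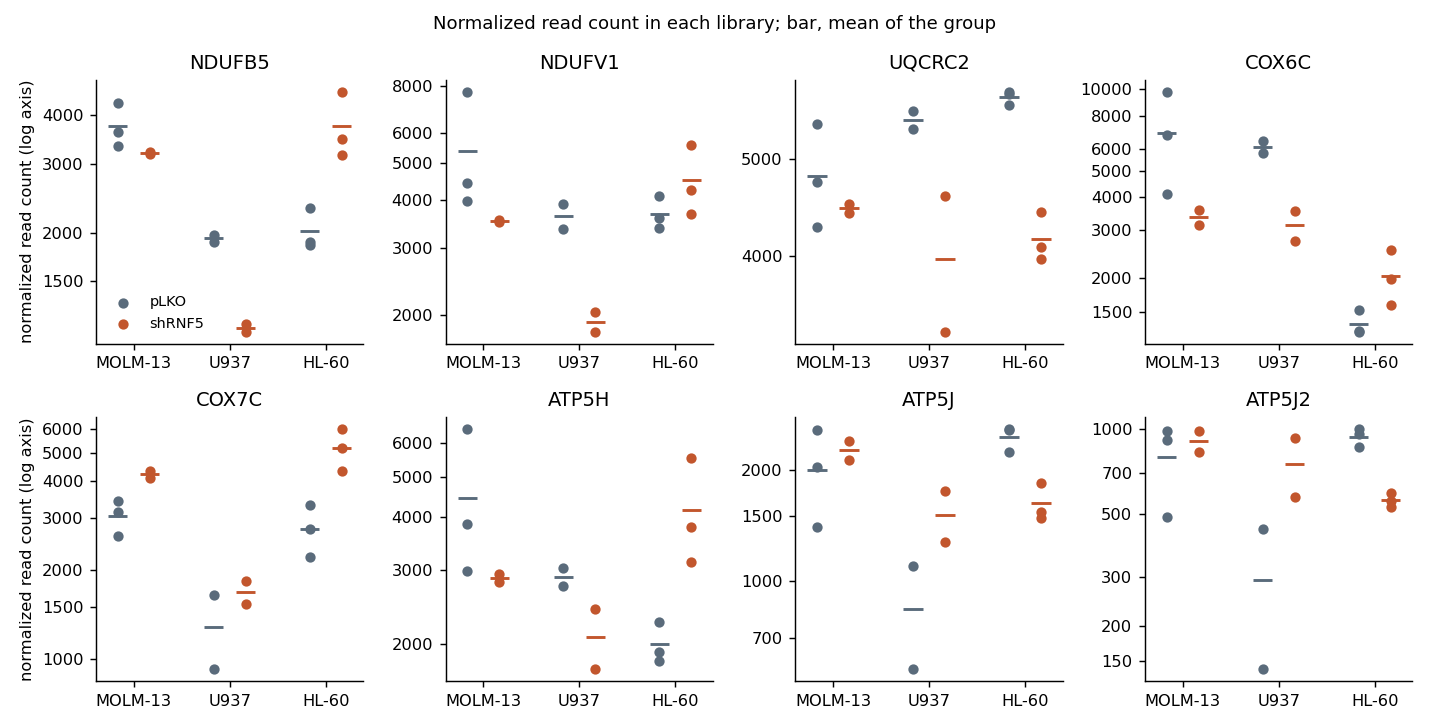
Normalized read count (log axis) of 8 members in each library of the 3 lines, grey for pLKO and orange for shRNF5, with the group mean as a bar. In HL-60 the shRNF5 points of NDUFB5, COX6C, COX7C and ATP5H lie above the pLKO points and those of UQCRC2, ATP5J and ATP5J2 below them, and in U937 NDUFB5 and COX6C lie the other way.

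The HL-60 count rested in part on single libraries. Without pLKO replicate 1 it was 11, without pLKO replicate 3 it was 9 and without shRNF5 replicate 3 it was 10. In the last of these fits 5 members were higher and 5 lower, with a median log2 fold change of 0.04. ATP5H, COX7C, NDUFC2, NDUFB5, ATP5J, ATP5J2 and UQCRC2, 7 of the 19, passed in each of the 6 fits that left out 1 library.

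In U937, few respiratory subunits passed the test, and leaving out 1 library changed whether more of them were called lower or higher. Of 79 members tested, 1 rose and 5 fell, where 15.7% of all 13165 genes were called, 6.92% higher and 8.74% lower. The members' share of 7.59% was below that of all genes, and their median log2 fold change was -0.13, against 0.00, with 47 of 79 below 0, where 49.7% of all genes were. Those that fell included NDUFS7, NDUFV1, NDUFB5 and COX6C, and the 1 that rose was ATP5J2. Of 79 members, 31 had all shRNF5 libraries below all pLKO libraries and 15 had them above, where 30.2% and 29% of all genes did so.

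NDUFV1 (chr11:67373124-67380025, forward strand), the subunit that binds NADH and the flavin at the tip of complex I, read 3916 and 3361 with pLKO and 2031 and 1806 with shRNF5 in U937. Its log2 fold change was -0.92 ± 0.24 (SE), with a limma adjusted p of 0.0468. NDUFS7 (chr19:1383526-1395588, forward strand), a core subunit beside the coenzyme Q site, read 2294 and 1919 against 1003 and 1114. It changed by -0.99 ± 0.24 (SE, limma adjusted p = 0.0421). In both subunits each knockdown library was below each control. NDUFB5 read 1977 and 1887 with pLKO and 1117 and 1171 with shRNF5, a change of -0.76 ± 0.24 (SE, limma adjusted p = 0.0768). COX6C read 5806 and 6459 against 3547 and 2737, a change of -0.97 ± 0.25 (SE, limma adjusted p = 0.0449). Both moved against their direction in HL-60.

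ATP5J2 read 141 and 442 in U937 pLKO and 574 and 930 in U937 shRNF5 libraries. The rise of 1.54 ± 0.48 (SE, limma adjusted p = 0.0748) was also opposite to HL-60, and the control libraries differed from each other by more than the nearest values of the groups. ATP5J, which missed the threshold, read 576 and 1101 against 1278 and 1753, with a log2 fold change of 0.91 ± 0.33 (SE, limma adjusted p = 0.11). The U937 count was 13 without pLKO replicate 3, with 9 higher, 4 lower and a median of 0.06, and it was 0 without pLKO replicate 2, shRNF5 replicate 1 or shRNF5 replicate 3, so each of the 6 calls was lost in some of these fits. With libraries rescaled to equal sums 7 members fell and ATP5J2 was not called.

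In MOLM-13, no member of 80 passed the limma threshold, where 2.04% of all 13026 genes did, 1.03% higher and 1.01% lower, although 20 had an unadjusted p under 0.05 (17% of all genes). Values nevertheless lay on the lower side: 66 of 80 members had a log2 fold change below 0, against 49.1% of all genes, and the median was -0.32, against 0.01. For 41 members both shRNF5 libraries were below all pLKO libraries, 51.2% of those tested, where 19.2% of all genes were so placed. The other direction held for 2 members, COX7C and ATP5B, where 19.6% of all genes were so placed.

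COX6C had the largest difference among members with over 1000 normalized read counts in MOLM-13, with 9806, 6788 and 4091 in pLKO and 3564 and 3157 in shRNF5 libraries, and a log2 fold change of -0.95 ± 0.31 (SE, limma adjusted p = 0.204). The control libraries differed from each other by more than the groups did. COX7C read 3427, 3133 and 2600 with pLKO and 4321 and 4116 with shRNF5, a log2 fold change of 0.48 ± 0.16 (SE, limma adjusted p = 0.199). Both knockdown libraries were above all controls. In U937 COX7C read 923 and 1639 against 1527 and 1836, with overlap. NDUFV1 read 7705, 4441 and 3989 against 3502 and 3540, with a log2 fold change of -0.55 ± 0.26 (SE, limma adjusted p = 0.331). Replicate 1 of pLKO was far above the other controls in NDUFV1, and in COX6C it was the highest of controls that all differed widely. Without this library 4 members passed, where 872 of all 13026 genes did. With library weights in the limma fit, 17 members passed, where 2224 of 13026 genes did.

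Values of the remaining core and catalytic subunits mostly stayed under the threshold. NDUFS1, the largest iron-sulfur subunit of complex I, read 4527, 4041 and 5041 with pLKO and 4271, 3748 and 3254 with shRNF5 in HL-60, 2319 and 2393 against 3475 and 2886 in U937, and 5952, 7160 and 7014 against 7248 and 6632 in MOLM-13. Its groups were apart only in U937, with a log2 fold change of 0.43 ± 0.24 (SE, limma adjusted p = 0.271).

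Complex II, which also works in the citric acid cycle, held no called member in any line. SDHA, its flavin subunit, read 2526, 2849 and 2697 with pLKO and 3117, 3177 and 3700 with shRNF5 in HL-60, 3898 and 2645 against 2561 and 1940 in U937, and 6905, 6494 and 5818 against 5634 and 5624 in MOLM-13. The groups did not overlap in any line and lay higher with shRNF5 in HL-60 but lower in the others. The HL-60 value of 0.31 ± 0.12 (SE, limma adjusted p = 0.0943) was under the fold threshold. SDHB, the iron-sulfur subunit, read 2515, 2852 and 2399 against 2423, 2483 and 3594 in HL-60, 2560 and 2832 against 2545 and 2392 in U937, and 3729, 3123 and 2736 against 2389 and 2523 in MOLM-13. SDHC, a membrane anchor, read 530, 449 and 459 against 521, 482 and 642 in HL-60, 584 and 498 against 781 and 666 in U937, and 1341, 1616 and 1527 against 1553 and 1451 in MOLM-13. SDHB was lower without overlap in U937 and MOLM-13, and SDHC was higher without overlap in U937. SDHD, the other anchor, whose promoter is printed above, read 2510, 2384 and 2893 against 2248, 2421 and 2327 in HL-60, 1703 and 1852 against 1184 and 1384 in U937, and 3976, 4783 and 3894 against 2974 and 3318 in MOLM-13. It was lower without overlap in U937 and MOLM-13, with log2 fold changes of -0.47 and -0.42 and limma adjusted p-values of 0.234 and 0.227.

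In complex III, UQCRC1, the first core subunit, read 3622, 4363 and 3820 with pLKO and 3924, 4319 and 4686 with shRNF5 in HL-60, 4692 and 5151 against 4244 and 4723 in U937, and 5131, 4330 and 4460 against 3765 and 4075 in MOLM-13. UQCRFS1, the Rieske iron-sulfur protein, read 1666, 2219 and 1889 against 2030, 2077 and 2693 in HL-60, 2261 and 2536 against 2090 and 1991 in U937, and 4546, 3854 and 3369 against 2879 and 3017 in MOLM-13. Log2 fold changes of both lay between -0.40 and 0.23, with no call. In complex IV, COX5A, a nuclear subunit on the matrix side, read 3656, 4520 and 3673 against 3212, 2419 and 4020 in HL-60, 1750 and 3256 against 3437 and 4342 in U937, and 3571, 4680 and 4142 against 4509 and 4519 in MOLM-13. Its U937 groups did not overlap, with 0.69 ± 0.31 (SE, limma adjusted p = 0.177). COX4I1 read 3483 and 4775 against 3334 and 3348 in U937 and 12468, 8966 and 7852 against 7516 and 7557 in MOLM-13, lower in both without a call.

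ATP5B read 21204, 22767 and 21179 with pLKO and 25228, 24062 and 28353 with shRNF5 in HL-60, 9622 and 9990 against 13625 and 11836 in U937, and 35917, 35586 and 31742 against 38063 and 38420 in MOLM-13. Its knockdown libraries were above the controls in all 3 lines, with log2 fold changes of 0.25, 0.37 and 0.15 and limma adjusted p-values of 0.216, 0.354 and 0.584. ATP5A1 read 22649, 25275 and 25552 against 23867, 26827 and 27812 in HL-60, 14757 and 15435 against 9659 and 9256 in U937, and 24396, 22848 and 20688 against 16379 and 16501 in MOLM-13. It was lower without overlap in U937 and MOLM-13, at -0.67 ± 0.25 (SE, limma adjusted p = 0.112) and -0.46 ± 0.13 (SE, 0.165), and it forms the same head as ATP5B.

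Of the ubiquitous isoforms in pairs, COX6A1, COX6B1, COX7A2, COX7B and COX8A of complex IV had log2 fold changes between -0.31 and 0.40 over the lines, with no call. NDUFA4 read 801 and 1222 with pLKO and 1433 and 1666 with shRNF5 in U937, apart but not called at 0.64 ± 0.28 (SE, limma adjusted p = 0.165). Among the c subunit genes ATP5G2 read 3523 and 3691 against 2417 and 2281 in U937, a log2 fold change of -0.62 ± 0.23 (SE, limma adjusted p = 0.117), and ATP5G1 read 2032, 2364 and 1970 against 1544, 1811 and 1770 in HL-60, one of -0.31 ± 0.12 (SE, 0.101). Both pairs of groups were apart, and neither value passed.

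By complex, the median log2 fold change in HL-60 was 0.17 for complex I, 0.15 for complex II, 0.11 for complex III, 0.21 for complex IV and 0.13 for complex V. In MOLM-13 the medians were -0.38, -0.28, -0.28, -0.21 and -0.32. In U937 complexes I, II and III had medians of -0.24, -0.30 and -0.18, whereas complexes IV and V had 0.13 and 0.06. All calls in U937 except those of COX6C and ATP5J2 were in complex I. The antisense RNA NDUFA6-AS1 read from 14 to 67, and NDUFB2-AS1 from 10 to 41 where it was above 0. Counting by strand is not stated in the sources used here, so reads of these and their partner genes cannot be told apart.

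**Figure D3:**
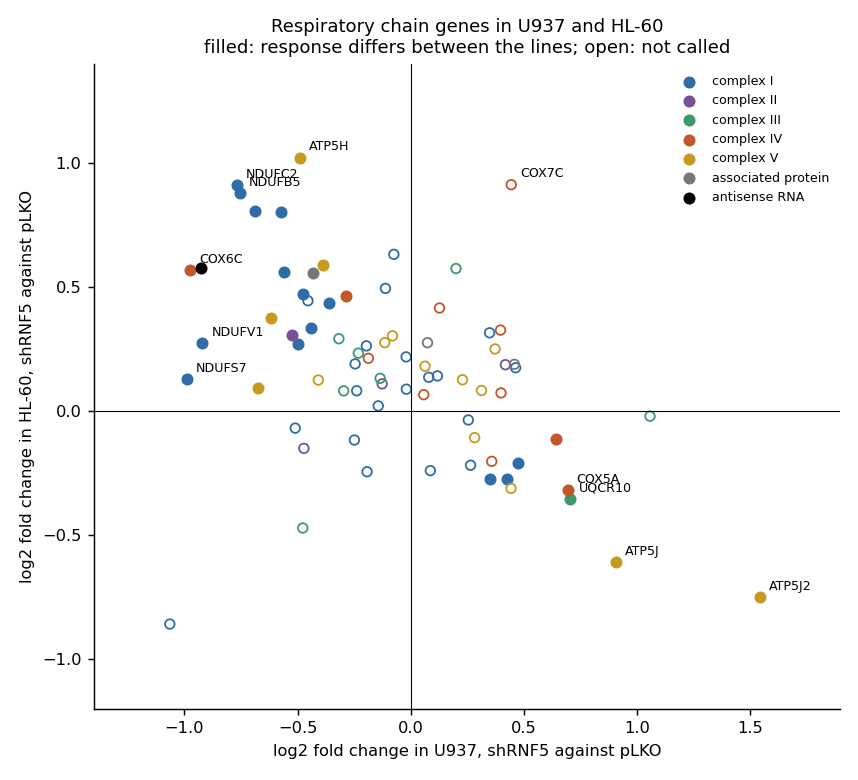
Log2 fold change of all but 1 of the members above 0 in both lines, in U937 (x axis) and HL-60 (y axis), colored by complex, with filled points where the response differed between the lines. ATP5J2 and ATP5J lie at the lower right, and ATP5H, NDUFC2, NDUFB5 and COX6C at the upper left.

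The response to knockdown differed between lines for part of the members, by a term for the difference in a limma model of all libraries. Between U937 and HL-60, 29 of 77 members above 0 in all lines differed at an adjusted p under 0.1, 8 higher and 21 lower in U937, where 37.2% of all 11072 genes differed, 19.1% higher and 18.1% lower. Between MOLM-13 and HL-60, 11 differed, all lower in MOLM-13, where 8.82% of genes did, 5.09% lower and 3.72% higher. Between MOLM-13 and U937 limma called none, where 15.4% of genes differed, 8.48% lower and 6.95% higher in MOLM-13, and 9 members had an unadjusted p under 0.05. The 11 that differed between MOLM-13 and HL-60 were NDUFB1, NDUFB3, NDUFB5, NDUFB11, NDUFC1, NDUFC2, NDUFS3, COX6C, ATP5H, ATP5L and COX7A2L. The count for MOLM-13 against HL-60 rested on single libraries. It was 6 without MOLM-13 pLKO replicate 1, 22 without pLKO replicate 3, 0 without shRNF5 replicate 1 and 1 without shRNF5 replicate 2. On the HL-60 side it was 5 without pLKO replicate 1 or pLKO replicate 3, 18 without shRNF5 replicate 1 and 4 without shRNF5 replicate 3. For MOLM-13 against U937 it was 6 and 4 without MOLM-13 pLKO replicates 1 and 3, 20 without U937 pLKO replicate 3 and 2 without U937 shRNF5 replicate 3.

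NDUFB5, COX6C and ATP5J2, the members called in opposite directions in U937 and HL-60, had differences of -1.63 ± 0.24 (SE, limma adjusted p = 0.0006), -1.54 ± 0.38 (SE, 0.00915) and 2.29 ± 0.52 (SE, 0.00581) between these lines. NDUFC2 differed by -1.68 ± 0.41 (SE, limma adjusted p = 0.00788), ATP5H by -1.51 ± 0.39 (SE, 0.0103) and ATP5J by 1.52 ± 0.37 (SE, 0.00791). Of the 77 members, 50 (64.9%) were below 0 in MOLM-13 and above 0 in HL-60, the pattern of 26.1% of all genes. Below 0 in both MOLM-13 and U937 and above 0 in HL-60 were 37 (48.1%), against 15.7% of all genes. The signs carry no test and include members that did not pass in any line.

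**Figure D4:**
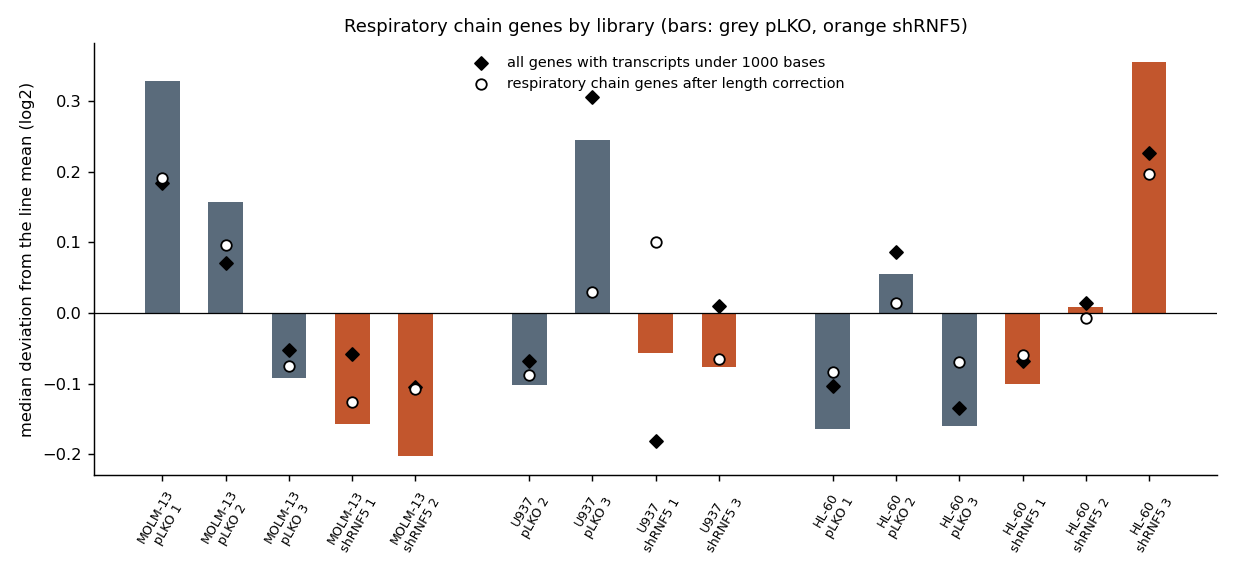
Median deviation of the members from their mean in the line (log2, y axis) in each library, with bars in grey for pLKO and orange for shRNF5, diamonds for all genes with transcripts under 1000 bases and open circles for the members after a correction for transcript length. The tallest bars are MOLM-13 pLKO replicate 1, U937 pLKO replicate 3 and HL-60 shRNF5 replicate 3, where the diamonds are also high.

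The members moved together within single libraries, and in step with short transcripts as a set, which includes the short members. Their median transcript length was 905 bases in MOLM-13, against 3031 for all genes tested there. In HL-60 shRNF5 replicate 3, 68 of 78 members were above their mean in the line, with a median deviation of 0.35, and genes with transcripts under 1000 bases had 0.23. The other HL-60 shRNF5 libraries had member medians of -0.10 and 0.01, within the control range of -0.16 to 0.06. In MOLM-13 pLKO replicate 1 the member median was 0.33 and that of short genes 0.18, and in U937 pLKO replicate 3 they were 0.25 and 0.31. Over all genes with transcripts under 1000 bases, the median log2 fold change was 0.10 in HL-60, -0.20 in U937 and -0.12 in MOLM-13, the same signs as the members' medians. Among the members themselves, fold change hardly followed length. Their Spearman correlation was -0.07 in HL-60, -0.14 in U937 and 0.08 in MOLM-13, against -0.21, 0.16 and 0.27 over all genes with a length.

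A correction that removes each library's trend with transcript length kept most calls. In HL-60, 13 members rose and 7 fell, where 26.5% of genes were called, 13.9% higher and 12.5% lower, 17 of the 19 calls were retained, and the median went from 0.18 to 0.10. In MOLM-13 the median went from -0.32 to -0.18, and COX7C passed, where 2.52% of genes did, with a log2 fold change of 0.64 (limma adjusted p = 0.0582). In U937 the median went from -0.13 to 0.05, and 5 members rose and 5 fell, where 15.5% of genes were called, 7.22% higher and 8.32% lower, 5 of the 6 calls being retained. The risers after correction in U937 were ATP5J2, ATP5J, COX5A, NDUFB10 and UQCR10, and ATP5A1 joined those that fell. ATP5J, COX5A and UQCR10 were then called in opposite directions in U937 and HL-60, as NDUFB5, COX6C and ATP5J2 were without the correction. Between lines, corrected responses differed for 34 members in U937 against HL-60 (39.5% of all genes), 12 in MOLM-13 against HL-60 (7.23%) and 10 in MOLM-13 against U937 (20.9%). How far length acts on these values beyond this trend was not tested.

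The 13 mitochondrially encoded subunits of the same complexes had a median of opposite sign to that of the nuclear members in each line, although the nuclear median of U937 turned positive with the length correction (0.05) and without pLKO replicate 3 (0.06). In HL-60, 11 of 13 fell and none rose, where 12.3% of all genes fell and 13.6% rose. All 13 were below 0 there, with a median log2 fold change of -1.54, against 0.18 for the nuclear members. In U937, 3 rose (MT-CYB, MT-ND2 and MT-ND5), where 6.92% of all genes rose, with a median of 1.15. With the length correction 8 rose there, where 7.22% of all genes did. In MOLM-13 none passed, where 2.04% of all genes did, with 12 of 13 above 0 and a median of 0.51. MT-ND2, a membrane subunit of complex I, read 491, 336 and 347 with pLKO and 111, 47 and 78 with shRNF5 in HL-60. It had a log2 fold change of -2.36 ± 0.29 (SE, limma adjusted p = 0.0012), and MT-CYB, the cytochrome b of complex III, one of -2.15 ± 0.34 (SE, 0.0035). In U937 MT-CYB read 7 and 19 against 46 and 181, a rise of 2.87 ± 0.75 (SE, limma adjusted p = 0.0486), and MT-ND2 read 11 and 51 against 78 and 374, a rise of 2.78 ± 0.81 (SE, 0.0635). The U937 control values of both were low, and shRNF5 replicate 3 held the higher knockdown value of each. The difference between U937 and HL-60 passed for 11 of the 13 genes and that between MOLM-13 and HL-60 for 9, all lower in HL-60. Over all genes, 37.2% and 8.82% differed in these comparisons, 19.1% and 3.72% with the response lower in HL-60.

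All 13 together took between 0.0078% and 0.0435% of a library's summed values, and the nuclear members between 0.794% and 1.45%. The HL-60 sums of the 13 were 6956, 5198 and 5002 with pLKO and 2832, 1260 and 2073 with shRNF5. Those of U937 were 1404 and 2321 with pLKO and 2406 and 6141 with shRNF5. The U937 rise thus lay mostly in shRNF5 replicate 3, while replicate 1 was close to a control library. Within MOLM-13, pLKO replicate 1 had the lowest sum, 3184 against 5527 and 6530, and the highest nuclear median. Mitochondrial transcripts have nuclear copies, so reads that map to both may be left out of such counts.

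**Figure D5:**
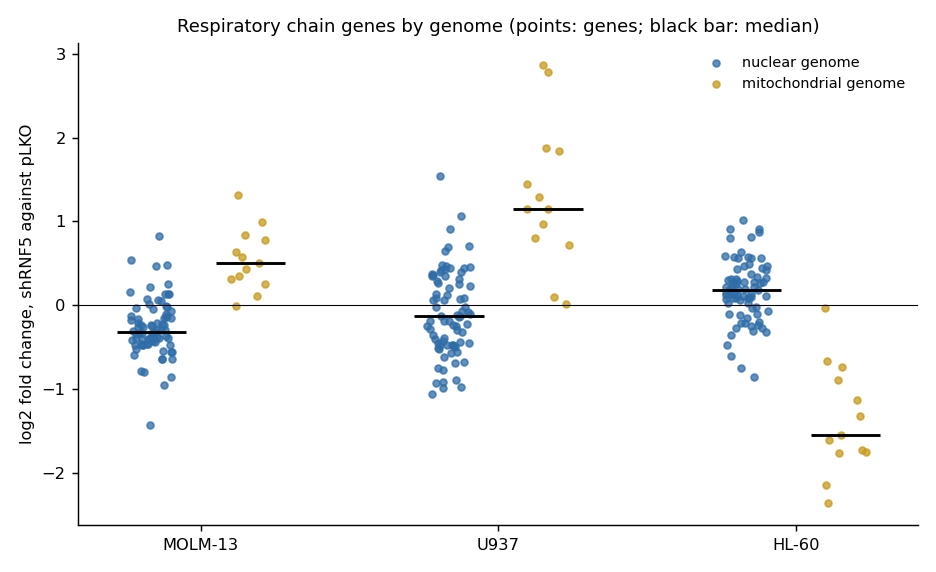
Log2 fold change (y axis) of nuclear-encoded members (blue) and of the 13 mitochondrially encoded subunits (yellow) in each line, with the median as a black bar. The mitochondrial median is above the nuclear one in MOLM-13 and U937 and below it in HL-60.

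Assembly factors and neighbouring pathways were read from hand-written lists, whose counts stand against the 25.9% of all genes called in HL-60, 15.7% in U937 and 2.04% in MOLM-13. Of 15 complex I assembly factors, 3 fell in HL-60 and none rose, where 12.3% of all genes fell and 13.6% rose, while the subunits NDUFB5 and NDUFC2 rose there. With the length correction 4 of the 15 fell and 1 rose in HL-60. The genes named next are from the fit without it. NUBPL, which delivers iron-sulfur clusters to complex I, read 550, 455 and 479 with pLKO and 283, 282 and 227 with shRNF5. NDUFAF2 read 447, 486 and 407 against 267, 246 and 261, a change of -0.79 ± 0.14 (SE, limma adjusted p = 0.0057), and the third was TMEM126B. None of the 15 passed in U937 or MOLM-13.

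Of 9 complex II and III assembly factors, 2 fell in U937, and 3 rose and 1 fell in HL-60. SDHAF1 and C6orf57, both needed for complex II, fell in U937 and rose in HL-60, while its subunits did not pass in either. These calls did not all hold with the length correction, where 1 of the 9 factors fell in U937 and 1 rose in HL-60. C6orf57 read 450 and 450 against 131 and 142 in U937 and 51, 79 and 50 against 93, 82 and 100 in HL-60. Of 25 complex IV assembly factors, 5 rose and 1 fell in HL-60, and 1 rose and 1 fell in U937, shares below the 25.9% and 15.7% of all genes called. With the length correction 7 rose and 1 fell in HL-60, where 26.5% of all genes were called. CMC2 read 561, 681 and 568 against 875, 1030 and 1187 in HL-60, a rise of 0.77 ± 0.15 (SE, limma adjusted p = 0.0071). SELRC1 was called in opposite directions, with 958, 845 and 921 against 557, 587 and 432 in HL-60 and 299 and 494 against 933 and 689 in U937. Of 5 genes of ATP synthase assembly and inhibition, TMEM70 rose in U937 and none passed elsewhere.

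Among 17 electron carriers and coenzyme Q genes, 4 rose in HL-60, led by COQ2 and ETFB, and none passed in the other lines, where 13.6% of all genes rose and 25.9% were called in HL-60. Of 18 citric acid cycle genes, 3 fell and 1, IDH2, rose in HL-60, none passed in U937 and DLAT fell in MOLM-13 and HL-60. The share called in HL-60 was below the 25.9% of all genes. With the length correction 4 of these cycle genes fell and 1 rose there, where 26.5% of all genes were called. CS, citrate synthase, read 5512, 5138 and 5515 with pLKO and 4098, 3772 and 3243 with shRNF5 in HL-60, a change of -0.55 ± 0.12 (SE, limma adjusted p = 0.0136). Of 15 regulators of mitochondrial biogenesis tested in HL-60, 4 fell and none rose, where 12.3% of all genes fell and 13.6% rose. With the length correction 3 of them fell and none rose. In U937 2 of 16 rose and 1 fell, where 15.7% of all genes were called, and none of 15 passed in MOLM-13. MYC, a transcription factor with many targets among mitochondrial genes, read 21613, 29696 and 23014 against 10002, 11565 and 8948 in HL-60, a log2 fold change of -1.28 ± 0.16 (SE, limma adjusted p = 0.0013). PPARGC1A, a coactivator of respiratory genes, was above 0 only in U937 and fell from 1660 and 736 to 270 and 318. C10orf2, the mitochondrial helicase Twinkle, and PPRC1 rose in U937 and fell in HL-60. Of the nuclear subunits outside the symbol pattern, 4 were tested in each line and none passed.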

How the data were processed

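The 15 RNA-seq libraries of 3 AML lines were assigned to line and construct from their titles. The authors trimmed reads (cutadapt), mapped them to hg19 (STAR), obtained gene counts (featureCounts) and used edgeR, run through SARTools, for normalization, and the labels' processing notes name hg19, featureCounts, Subread and edgeR. The labels name a 3′ end kit and the methods a directional poly(A) kit. The deposited values are a score, a normalized read count that the authors had rounded to a whole number. Genes removed by their expression filter stand at 0.

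Repeated rows of an identifier were dropped. Each line was tested with limma 3.58.1 in R 4.3.3 on log2(value + 1), with a mean-variance trend, over every gene with a value above 0 in that line. Fold changes are on this scale, which understates changes of low genes. Responses were compared between lines by an interaction term fitted to the 15 libraries together. Intervals from counting error were left out because the values are scaled. Transcript lengths and coordinates came from GENCODE 44 lifted to GRCh37, the build of hg19, with the canonical transcript of each gene. For the length correction, a lowess curve of deviations on log2 length was subtracted from each library. Scripts were tested on simulated data. The alternatives were a pseudocount of 0.5 or 10, a filter at a mean of 50, 2 other scalings, the length correction, no trend, library weights, one fit over all libraries, an adjusted p under 0.05, a replicate block and leaving out each library.

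Members, lists and tests were chosen with earlier results of these data known. Any member could be named. Values in every library were given for the catalytic core, for members called in opposite directions or in the same direction in 2 lines, for the 3 largest called rises and falls in a line and for isoform pairs where they differed. From the lists, genes called in 2 lines or with the 2 largest changes in a line were named, and TMEM126B and DLAT complete short counts. No library duplicated another. The values of 1 member are not reported here, although it is counted.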

Additional observations from a re-analysis of the deposited data

Results flagged for a closer look

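Responses that differed between lines drew attention in limma's test of the difference, at an adjusted p under 0.1. For U937 against HL-60 this held for 29 of 77 members, where 37.2% of all 11072 genes differed. Among those named, the log2 fold change in U937 minus that in HL-60 was -1.68 for NDUFC2, -1.63 for NDUFB5, -1.54 for COX6C, -1.51 for ATP5H, -1.19 for NDUFV1, -1.12 for NDUFS7, -0.99 for ATP5G2, -0.83 for SDHA, -0.77 for ATP5A1 and -0.75 for COX4I1. It was 2.29 for ATP5J2, 1.52 for ATP5J, 1.01 for COX5A, 0.75 for NDUFA4 and 0.70 for NDUFS1.

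For MOLM-13 against HL-60 the response differed for 11 of 77 members, where 8.82% of all genes differed. Among those named the value in MOLM-13 minus that in HL-60 was -1.77 for NDUFC2, -1.58 for ATP5H, -1.52 for COX6C and -1.10 for NDUFB5. MOLM-13 pLKO replicate 1 and HL-60 shRNF5 replicate 3 held the highest member medians of their lines, and without either of them 6 and 4 members differed.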

How the results depend on the processing

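The count of called members in MOLM-13 was 0 in the reported fit, 1 with the length correction, 17 with library weights and 11 with a replicate block. These fits called 266, 328, 2224 and 741 of all 13026 genes. The block also left out MOLM-13 pLKO replicate 3, whose number has no shRNF5 library. In U937 the member count was 6, against 10 with the length correction, 0 without a mean-variance trend, 25 in one fit over all 15 libraries and 3 at an adjusted p under 0.05. The U937 counts over all genes were 2062, 2046, 475, 3994 (of 11072) and 824. In HL-60 the member count stayed within 1.5 times of 19 in all alternatives except those that left out a library. Between MOLM-13 and U937 the count was 0, against 1 with median-of-ratios scaling, 10 with the length correction, 2 without a trend and 2 with library weights. The same fits called 1708, 1724, 2311, 1451 and 1588 of all 11072 genes. Between MOLM-13 and HL-60 the member count was 11, against 42 with library weights, 30 with the replicate block and 6 at an adjusted p under 0.05. There 976, 3123, 1966 and 360 of all 11072 genes were called. The cause of these shifts was not tested.

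Leaving out each library in turn gave 0 to 4 called members in MOLM-13, 0 to 13 in U937 and 9 to 24 in HL-60. The counts that differed between lines ranged from 0 to 20 for MOLM-13 against U937, from 0 to 22 for MOLM-13 against HL-60 and from 20 to 34 for U937 against HL-60. The median log2 fold change of the members ranged from -0.45 to -0.21 in MOLM-13, from -0.33 to 0.06 in U937 and from 0.04 to 0.27 in HL-60. A fit without 1 of 2 libraries assumes that the lone library varies like the others. For the named members, 1357 alternative values kept their side of the threshold, 47 crossed to a call, 44 lost one and none of the called directions turned.

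Whether the replicate numbers pair the libraries was not settled. The MOLM-13 shRNF5 deviations from their group mean mirror each other, so they cannot decide it. Correlations of same-numbered deviations were -0.133 and -0.447 in MOLM-13 and 0.386, 0.12 and -0.047 in HL-60, and not every library correlated best with its own number. With the block, 20 members were called in HL-60, and the U937 constructs share only number 3, so no block was fitted there. Low values limit NDUFV2, NDUFA4L2, NDUFA7 and the antisense RNAs most, and the reason for these low values was not tested.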
